A study of Mus musculus with 14 samples.

Results

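The dystrophin complex genes Dmd, Utrn, Dag1, Sgca, Sgcb, Sgcd, Sntb1 and Dtna were examined for peaks of MyoD and MyoG, the transcription factors of the muscle lineage, in muscle stem cells (MuSCs) of the mouse. The members are these 8 named genes, and their peaks are all entries that the deposited annotation assigned to one of them. All 8 had at least 1 peak, among 4384 genes with a peak, and together they held 34 of 10303 peaks.

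All mice were labelled wild-type and carried a floxed mito-Dendra2 allele switched on by Pax7-Cre(ERT2), a tamoxifen-dependent recombinase made in MuSCs. Tamoxifen at 75 mg/kg was given once a day for 5 days, and 2 days later the tibialis anterior muscle received 50 µL of 1.2% BaCl2, which injures it, while the contralateral muscle received saline. Activated cells (ASCs; CD34-, Dendra2+, DAPI-) were sorted from injured muscle and quiescent cells (QSCs; CD34+, Dendra2+, DAPI-) from uninjured muscle, 2 days after injury. ChIP-seq of either state with either antibody gave 4 groups of 3 libraries, named by state and factor (ASC MyoD and so on), and the 2 input libraries were not analysed here. The study describes the replicates as biological. The ages of the mice, and whether a replicate was 1 animal or a pool, are not given in the sources used here.

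A peak is a stretch where a library held more reads than its background, and its score is the p-value of the peak caller on a negative log10 scale, multiplied by 10, with a lowest value of 50 (p of 1e-05). ASC MyoD lists held 2262 to 2652 peaks, ASC MyoG lists 605 to 916, QSC MyoD lists 139 to 174 and QSC MyoG lists 120 to 167. Read numbers are not part of the lists, and the depth of the libraries is unknown. The part that depth or cell number plays in the smaller QSC lists was not tested.

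Dystrophin, encoded by Dmd, links actin under the muscle membrane to dystroglycan, and through it to laminin outside the fiber. Utrophin, from Utrn, is its close relative. Dag1 encodes dystroglycan, the sarcoglycans Sgca, Sgcb and Sgcd form a membrane subcomplex beside it, and syntrophin (Sntb1) and dystrobrevin (Dtna) bind dystrophin on the inner side. Loss of dystrophin or of sarcoglycans causes muscular dystrophy. MyoD and MyoG bind a short DNA motif called the E-box, whose letters are CANNTG.

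MyoD peaks at the dystrophin complex were found in ASCs and in none of the QSC MyoD libraries. The 3 ASC MyoD libraries held 9, 8 and 9 member peaks (8.67 ± 0.577, SD, n = 3), which was 0.362% ± 0.0272 of the peaks of the list. The QSC MyoD libraries held 0 of 171, 0 of 139 and 0 of 174 peaks, and for the smallest list the upper bound of the 95% Wilson interval of this share was 2.69%. A QSC share equal to that of ASCs was therefore not detectable as a difference from 0 with lists of this size, and such intervals cover counting error only. MyoG peaks were fewer, with 3, 0 and 2 in ASC libraries and 3, 0 and 0 in QSC libraries.

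**Figure D1:**
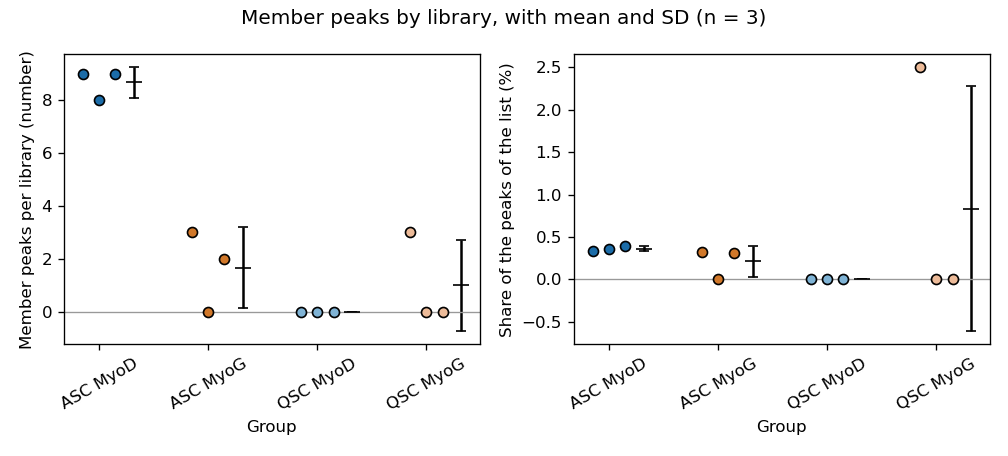
Number of peaks at the 8 member genes (left) and their share of all peaks of the list in percent (right), for each library (points) with the mean and SD of 3 libraries (bars) in each group. The ASC MyoD libraries sat at 8 to 9 peaks and the QSC MyoD libraries at 0, whereas 1 QSC MyoG library, replicate 1, held 3 peaks, or 2.5% of its list.

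Peaks that overlapped by at least 1 bp were merged into regions. Over the 6 MyoD lists the members had 12 regions, and 8 of these had a peak in at least 2 ASC libraries and in no QSC library, which is called ASC-specific here. Among all 4488 MyoD regions 44.0% met the same rule. Of the 1986 regions with a peak in at least 2 ASC libraries, 1976 had none in a QSC library. With QSC MyoD lists of 139 to 174 peaks, the rule thus rests mostly on recurrence among ASC libraries. The ASC-specific regions lay at 6 of 8 members (Utrn, Dag1, Sgca, Sgcb, Sntb1 and Dtna), where 50.1% of the 3223 genes with a MyoD peak, and 5.92% of 21900 RefSeq protein-coding genes, had one. For MyoG none of the 8 member regions was ASC-specific, beside 9.42% of all 2198 MyoG regions, and accordingly 0 of 2 members with a MyoG peak had such a region, beside 5.97% of 1541 genes.

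**Figure D2:**
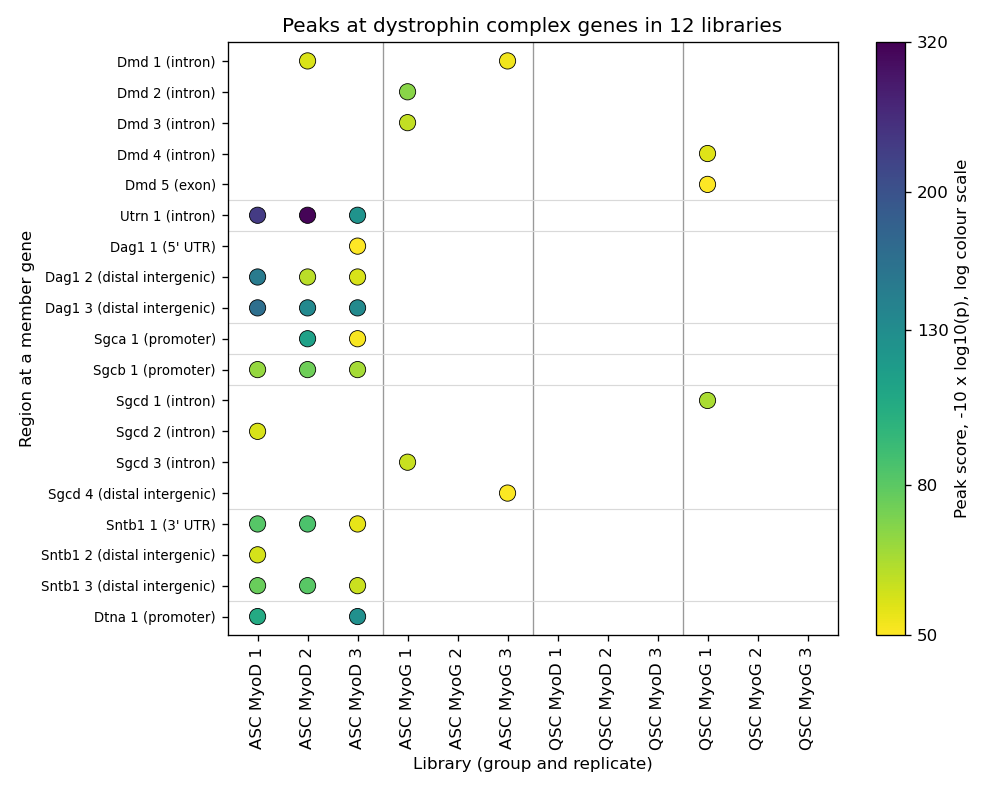
Peaks at each of the 19 member regions (rows, with the deposited annotation) in the 12 libraries (columns); a point marks a peak and its colour the score on a log scale. ASC MyoD peaks recurred over replicates at Utrn, Dag1, Sgca, Sgcb, Sntb1 and Dtna, whereas each MyoG region at Dmd or Sgcd had a MyoG peak in 1 library.

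Utrn held the highest scoring member region. The peak lay in intron 1 of 73 (chr10:12820730-12821842), 40.4 kb downstream of the RefSeq start site. Its score was 232 in ASC MyoD 1, 315 in ASC MyoD 2 and 123 in ASC MyoD 3 (224 ± 96.2, SD, n = 3). All 3 peaks ranked high in their own lists, at percentiles 95.8, 99.0 and 85.1, and no library of the other groups had a peak at Utrn.

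Dag1 had a pair of neighbouring regions upstream of the gene, 371 bp apart, both annotated as distal intergenic. The region farther from the gene (chr9:108274216-108275438), 10.9 kb upstream of the nearest RefSeq start site, had scores of 164, 133 and 133 in ASC MyoD 1, 2 and 3. Its percentiles were the most even of the members with 3 peaks, at 87.7 ± 2.04 (SD, n = 3). The nearer region (chr9:108272577-108273844), 9.25 kb upstream, had scores of 149, 60.5 and 56.1, so that replicate 1 was 2.66 times as high as replicate 3. A further peak in a 5' UTR (chr9:108217884-108218598) appeared in ASC MyoD 3 alone, with a score of 50.3.

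At Sgcb, which encodes beta-sarcoglycan, all 3 ASC MyoD libraries had a peak over the annotated promoter (chr5:73646966-73647836). The scores were 67.0, 75.5 and 64.2 (68.9 ± 5.85, SD, n = 3), which was a narrow spread at a moderate level. It was the 1 member region that covered a RefSeq promoter window, defined as 250 bases before to 50 after a start site. The 250 bases before the Sgcb start site (GRCm38.p6, chr5:73647738-73647987, minus strand) are shown because the peak reaches into them, with capitals for the 68 bases under the peaks of all 3 libraries.
Sgcb: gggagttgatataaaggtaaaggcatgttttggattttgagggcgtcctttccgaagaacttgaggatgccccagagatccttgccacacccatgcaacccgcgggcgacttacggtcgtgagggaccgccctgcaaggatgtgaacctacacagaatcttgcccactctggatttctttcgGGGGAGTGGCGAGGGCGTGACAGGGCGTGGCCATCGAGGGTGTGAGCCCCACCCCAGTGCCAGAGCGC

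No CANNTG was present in the Sgcb window of 300 bases. This motif reads the same on both strands, and 72.3% of all 32851 RefSeq windows held it, compared with 89.9% of the 168 windows that overlapped an ASC MyoD region found in at least 2 libraries. Of the 8 windows of the 6 members that matched (Dmd, Utrn, Dag1, Sgca, Sgcb and Sgcd), 6 held CANNTG (75%), with 7 matches in the Utrn window. CAGCTG, a subset of CANNTG, was in 16.3% and 50.6% of these windows and in none of the 8 member windows. CAGGTG or its reverse complement CACCTG, also a subset, was in 20.2% and 33.9% and likewise in none of the 8. Only 1 of the 8 member windows, that of Sgcb, lay in part under a peak, so the counts over the 8 do not describe MyoD regions. The Dag1 windows also overlap each other. The rest of the Sgcb region, which extends into the gene, and the other member regions were not searched.

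Sgca and Dtna each had 1 promoter region that was missing from 1 ASC library. At Sgca, encoding alpha-sarcoglycan, the region (chr11:94973049-94974020) scored 111 in ASC MyoD 2 and 51.0 in ASC MyoD 3, the latter close to the floor of the lists. Its centre lay 2.79 kb inside the gene from the RefSeq start site, although the deposited annotation placed it within 1 kb of a transcript start. At Dtna, encoding alpha-dystrobrevin, the region (chr18:23413226-23414204), annotated at 1 to 2 kb from a transcript start, scored 104 in ASC MyoD 1 and 127 in ASC MyoD 3.

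Sntb1, encoding beta-1-syntrophin, had 2 regions in all 3 ASC MyoD libraries. The region annotated as 3' UTR (chr15:55790826-55791844) scored 81.7, 84.6 and 53.5, and a distal intergenic region (chr15:55975573-55976494) scored 76.2, 80.8 and 58.0. In both, replicate 3 was the lowest. A second distal region (chr15:55966760-55967387) appeared in ASC MyoD 1 only, at 56.5. Both distal regions lay outside the RefSeq interval of Sntb1 (chr15:55636388-55907302). The 3' UTR region lay inside this interval, away from both ends, and the deposited annotation does not name its transcript.

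Dmd and Sgcd, the 2 members longer than 1 Mb, had no replicated peak of either factor. At Dmd an ASC MyoD 2 peak of score 55.4 and an ASC MyoG 3 peak of score 52.2 overlapped in intron 1 of 6 of a transcript (chrX:82955798-82956412). This was the only 1 of 8 member regions with a MyoG peak that also had a MyoD peak, beside 5.52% of 2191 regions with a MyoG peak over all genes.

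The remaining Dmd peaks were in MyoG libraries. ASC MyoG 1 had peaks in introns 41 and 44 of 78, with scores of 69.6 and 59.4. QSC MyoG 1 had a peak in intron 47 of 78, with a score of 54.8, and a peak in exon 57 of 79, with a score of 50.1. None of these recurred in a further library.

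At Sgcd, encoding delta-sarcoglycan, each of 4 regions came from a single library. ASC MyoD 1 scored 56.1 in intron 2 of 6, ASC MyoG 1 scored 58.4 in intron 1 of 6, ASC MyoG 3 scored 50.6 in a distal region, and QSC MyoG 1 scored 63.3 in intron 3 of 6. All 8 MyoG peaks of the complex were thus at Dmd and Sgcd, with scores of 50.1 to 69.6. The 3 QSC peaks all came from QSC MyoG 1, without which no QSC library had a member peak.

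Peaks per length are given as a description, with no test. The Dmd interval of 2.39 Mb held 0.139 ASC MyoD peaks per Mb and library, compared with 1.39 ± 0.148 (SD, n = 3) over all protein-coding intervals. The ASC MyoD value at Dmd rests on 1 peak in 1 library. For ASC MyoG the Dmd interval held 0.418 per Mb, compared with 0.195 ± 0.0536, but the underlying numbers were 2, 0 and 1 peaks. For QSC MyoG it held 0.279 per Mb, compared with 0.0576 ± 0.0171, from 2, 0 and 0 peaks. Utrn, at 0.488 Mb, held 2.05 ASC MyoD peaks per Mb and no MyoG peak. The measure depends on gene length: at Sgcb, with 0.015 Mb, 1 ASC MyoD peak per library gave 66.7 per Mb.

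The number of peaks per library was compared between states for each member by an exact two-sided permutation test. With 3 libraries against 3 the smallest p is 0.1, so no gene could pass 0.05. For MyoD, Utrn (1, 1 and 1), Dag1 (2, 2 and 3), Sgcb (1, 1 and 1) and Sntb1 (3, 2 and 2) were higher in every ASC than in every QSC library, all of which were at 0. Each reached the exact p of 0.1, and the permutation p adjusted by Benjamini-Hochberg over 3223 genes was 0.312. Of all genes tested, 31.7% were separated in this way.

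The other members overlapped between states. Sgca (0, 1 and 1) and Dtna (1, 0 and 1) had an exact permutation p of 0.4, and Dmd (0, 1 and 0) and Sgcd (1, 0 and 0) an exact permutation p of 1. For MyoG the ASC and QSC ranges overlapped at both genes with a peak, Dmd (2, 0 and 1 against 2, 0 and 0) and Sgcd (1, 0 and 1 against 1, 0 and 0), and the exact permutation p was 1 for each. Among all 1541 genes with a MyoG peak 4.74% were separated between states.

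Of the 19 member regions, 12 had an ASC MyoD peak and 8 of these recurred, with scores from near the floor to the top of the lists. Of 12 member regions with an ASC MyoD peak, 66.7% were found in at least 2 libraries and 50% in all 3, compared with 48.4% and 27% of 4100 regions over all genes. The 4 regions found in 1 library scored 50.3 to 56.5. Among regions found in at least 2 libraries, the median of the mean percentile was 46.9 over the 8 member regions and 55.6 over all 1986. No test was made, since regions of 1 gene are not independent.

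**Figure D3:**
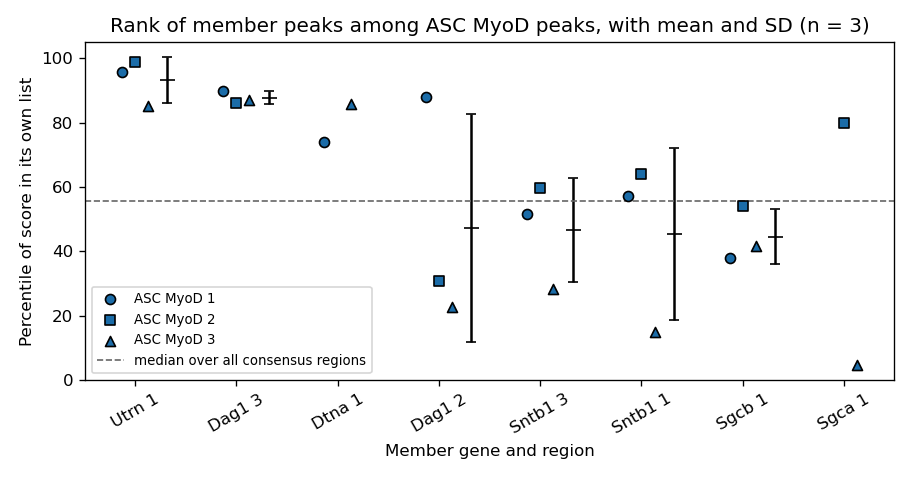
Percentile of the score within its own list for the 8 member regions found in at least 2 ASC MyoD libraries; points are libraries, bars the mean and SD where 3 libraries had a peak, and the dashed line the median over all 1986 such regions (55.6). Utrn, the third Dag1 region and Dtna lay above the line in every library with a peak, while the second Dag1 region and Sgca were spread widely.

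The 8 member regions were 3 promoter (37.5%), 3 distal intergenic (37.5%), 1 intronic (12.5%) and 1 in a 3' UTR (12.5%). Over all 1986 regions the shares were 22.7%, 35.5%, 35.2% and 2.27%. Promoter here means within 3 kb of a transcript start in the deposited annotation. With 8 regions a share moves by 12.5% for each region. Their median width, 999 bp, was close to the 983 bp of all.

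**Figure D4:**
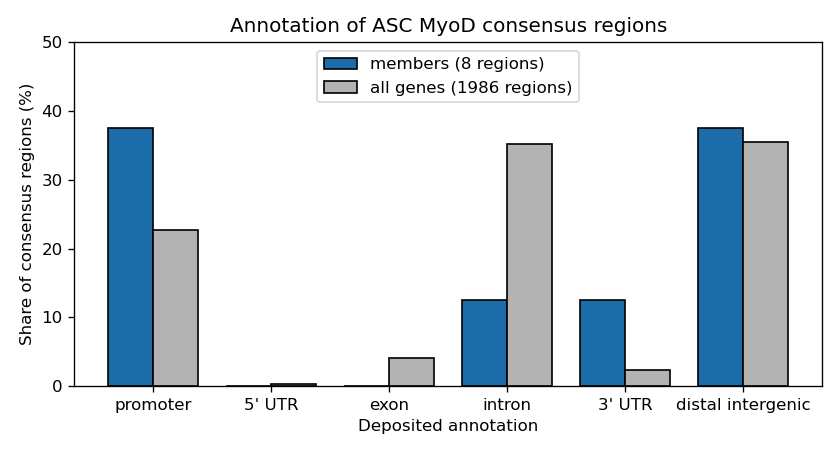
Share of ASC MyoD regions found in at least 2 libraries by deposited annotation class, in percent, for the 8 member regions (blue) and all 1986 regions (grey). Promoter regions made up 37.5% of the members and 22.7% of all, and introns 12.5% and 35.2%.

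The genes whose best peak followed that of a member most closely over the 12 libraries were found by Euclidean distance in percentile points. For Utrn these were Tbc1d1 (1.99), Ppp1r14b (4.12) and Mir133a-1hg (5.05). For Dag1 they were Trit1 (1.51), Cdin1 (2.02) and Wfs1 (2.98). All 6 had a peak in the 3 ASC MyoD libraries. Utrn and Dag1 had no peak in any other library, so these distances came from the score ranks in these 3 lists alone.

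Beyond the 8 members, 52 genes of the wider complex were listed as further complex subunits, ligands, enzymes that add sugars to dystroglycan, and partners at the membrane. Of these, 21 had an ASC MyoD peak (40.4%, beside 10.7% of protein-coding genes) and 10 an ASC-specific MyoD region (19.2%, beside the 5.92% of protein-coding genes), and none had a QSC peak of either factor. Only 1.02% of protein-coding genes had a QSC MyoD peak and 1.27% a QSC MyoG peak, so a count of 0 among 52 is near this background. By list the 10 were 2 of 13 subunits, 2 of 8 ligands, 2 of 18 enzymes and 4 of 13 membrane partners.

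Among subunits, Drp2, a dystrophin relative, had a 5' UTR region scoring 125, 126 and 82.3 in ASC MyoD 1, 2 and 3. Sspn, encoding sarcospan, had a distal region scoring 73.3, 184 and 121. Both were thus found in every ASC MyoD library, as Utrn and Sgcb were. A second Drp2 region, at a promoter, was found in 2 libraries with a mean score of 62.4.

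Among ligands, Lama5, a laminin chain, had a promoter region scoring 222, 154 and 164, and an exon 3 region in 2 libraries with a mean score of 72.3. Lama2, the laminin chain of muscle basement membrane, had an intron 12 region scoring 86.9, 70.6 and 78.8, and an intron 1 region in 2 libraries with a mean score of 63.6. The Lama5 promoter region ranked above every member region except that of Utrn, by mean percentile (92.5 against 93.3).

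Among membrane partners, the promoter of Plec, encoding plectin, scored 301, 257 and 285 and ranked highest of the genes described here (percentile 98.1 ± 0.396, SD, n = 3). Itga7, the laminin-binding integrin of muscle, had an intron 1 region scoring 262, 163 and 335. Anxa2, an annexin of membrane repair, had an intron 3 region scoring 102, 76.5 and 55.0, and Ank3, an ankyrin, had a distal region in ASC MyoD 1 and 2 scoring 87.8 and 90.5.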

How the data were processed

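MyoD and MyoG ChIP-seq peak lists of ASCs and QSCs were analysed (12 libraries). The authors deposited 1 list per library, with positions, a gene, an annotation and a score (minus 10 times log10 of the p-value). The submitters' processing notes name BWA 0.7.5, MACS, deepTools 3.5.0 and the build mm10; filters and the use of input are not given in the sources used here. Peak lists hold no reads, so the differential test on counts was replaced by presence of peaks and exact permutation tests. Peaks were merged at 1 bp overlap; the percentile is the rank of a score in its list. All 8 members were named with all regions; wider complex genes were named where a region was found in at least 2 libraries of a group, and those with MyoG peaks in 1 library (closing section) were chosen after their values were seen. Single genes of the enzyme list are not reported here. Members and lists were chosen with earlier results of these data known. RefSeq tables (GRCm38.p6) gave gene intervals and promoter windows. Merging and tests were tested on simulated data. Python 3.11.15, pandas 2.3.3, numpy 2.4.6 and scipy 1.17.1 were used.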

Additional observations from a re-analysis of the deposited data

How the results depend on the processing

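With peaks of score 80 or more (p of 1e-08) the ASC-specific MyoD regions at members fell to 4, the promoter regions to 1 and the members higher in every ASC library to 2. Without distal intergenic peaks 5 ASC-specific regions were left. With a peak in at least 1 library, MyoG had 5 ASC-specific member regions, and 21 wider complex genes had a MyoD region. All alternatives for the wider complex genes, here and in the next sentence, were chosen after seeing the data. Leaving out 1 replicate number gave 6 to 7 MyoD regions at 4 to 5 members, 4 to 5 members higher in every ASC library, and 9 to 10 wider complex genes. The shares over all regions or genes under these settings are not given here. These counts therefore cannot tell a change at the listed genes from a change at all genes. As a percent of the list, the MyoG difference between ASC and QSC turned negative at Dmd (-0.43) and Sgcd (-0.19), where 1 QSC library, replicate 1, held every QSC peak. Of 80 alternative values for single members, 68 kept their direction, 10 became 0 and 2 reversed. Both reversals were for MyoG. No MyoD value could reverse, since the QSC MyoD libraries held 0 peaks at every member. The values for the replicate block, given next, repeat the main difference and so keep its direction in any case. With the replicate block (an exact sign-flip test) the smallest p was 0.25, the lowest possible with 3 pairs. Deviations of same-numbered libraries correlated at -0.00894 to 0.0134 across genes. This cannot decide on pairing, since QSC MyoD lists of 139 to 174 peaks leave most of 3223 genes at 0. Injured and contralateral muscles of the same animals may have been used, but the labels name no shared animal. E-box counts in the peak regions were not run, since no genome was used here. Depth limits every absence reported: a missing peak in a QSC list of 120 to 174 peaks does not show absence of binding.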

Other observations

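MyoG peaks at the wider complex genes were few and each came from a single ASC library. Sntg1, a gamma-syntrophin gene, had 2 peaks in ASC MyoG 1 with scores of 53.1 and 55.0, and Sntg2 had 1 of 53.2 in the same library. The laminin genes Lama1 and Lama2 had peaks of 55.3 in ASC MyoG 3 and 53.2 in ASC MyoG 2. Slit2 and Syne1 had peaks of 55.5 and 50.3 in ASC MyoG 1. In all, 7 of 52 genes had an ASC MyoG peak (13.5%, beside 3.36% of protein-coding genes), and none a QSC MyoG peak, beside 1.27%. These shares were not tested.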
